A study of Mus musculus with 4 samples.

Results

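The SLAM family is a group of cell surface receptors of blood cells, and its genes lie close together on mouse chromosome 1. Here the 9 genes Cd48, Cd244, Slamf1, Ly9, Cd84, Slamf6, Slamf7, Slamf8 and Slamf9 were followed in differentiating erythroid cultures. They were taken as the array features annotated to a single gene of that list, older names included, and each of the 9 had exactly 1 such feature, out of 19938 genes with a feature of their own. Cd244 is named Cd244a in RefSeq. The genes were picked with the MEL and ES-EP values in view, so their own differences are given as a description and no p-value is attached to them.

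SLAM receptors carry immunoglobulin-like domains and mostly bind a copy of themselves on the neighbouring cell. CD48 is the exception among the ligands: it has no cytoplasmic tail, is held by a glycolipid anchor and binds CD244 and, in the mouse, CD2. Most of the other receptors signal through tyrosine motifs that recruit the small adaptors SAP (gene Sh2d1a) and EAT-2 (gene Sh2d1b1). In mouse bone marrow the presence of CD150, the product of Slamf1, and the absence of CD48 and CD244 are used to sort blood stem cells, and CD48 appears on more restricted progenitors.

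MEL cells, a mouse erythroleukemia line, were grown with serum and puromycin and then induced with estradiol for 48 hours. The labels do not say what the puromycin selects or how estradiol acts on the line. ES-EP cells, erythroid progenitors made from embryonic stem cells, had been kept with erythropoietin, insulin-like growth factor, dexamethasone and stem cell factor, and were then differentiated for 24 hours with erythropoietin, insulin and mifepristone, an antagonist of the glucocorticoid receptor. There were 2 cultures of each kind, A and B, and 1 array of the Affymetrix Mouse Gene ST type per culture, and no age, strain or genotype is stated for either. Cell line, medium, inducer and hours differ together between the groups and cannot be told apart, undifferentiated cultures were not analysed here, and the p-values below cover only the spread between these cultures.

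All values are log2 RMA values, on which 1 unit is a 2-fold difference, and differences are MEL minus ES-EP. RMA is a normalization that leaves dim features at a floor, so a fold against a dim group understates the true one. Signal also depends on each feature's probes, so the level of one gene does not tell whether its RNA is more or less abundant than that of another. The median difference of all genes was -0.14 as deposited. It was -0.07 once the arrays were centred on their medians, -0.02 once they were quantile normalized and 0.02 with cyclic loess, so small differences are to be read against that shift. In the fit across all features (limma, adjusted p under 0.05) 21.8% of the genes passed as higher in MEL and 36.9% as lower. Of the genes that passed, 37.1% were higher in MEL as deposited, against 44.3% with centred arrays, 48.3% with quantile normalized ones and 54.3% with cyclic loess. The duplicates correlated with r = 0.997 in MEL and 0.998 in ES-EP over features, against 0.948 to 0.949 between the groups, as a description of the arrays. Erythroid marker genes were bright in both groups, with 0 of 11 measured genes below the array median on both arrays of MEL or on both of ES-EP.

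Cd48 differed most among the family. It had 7.76 and 7.80 in MEL cultures A and B, against 3.87 and 3.78 in ES-EP cultures A and B. Both MEL arrays lay far above both ES-EP arrays, and the gap between duplicates was small next to the gap between groups. The means were 7.78 ± 0.03 in MEL and 3.82 ± 0.07 in ES-EP (SD, n = 2 each), a difference of 3.96 or 15.6-fold. Among all 19938 genes this was rank 54 from the top. The Cd48 feature was brighter than 69.9% of the tested features in MEL and than only 10.3% in ES-EP, so the ES-EP value sat near the floor of the arrays.

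The genes of the CD48 partners showed no such difference. Cd244, which encodes the receptor that reads CD48 on natural killer and myeloid cells, had 4.83 and 4.83 in MEL and 5.07 and 5.01 in ES-EP. The difference was -0.21 as deposited, 0.00369 on quantile normalized values and 0.00991 with cyclic loess, so its direction depends on the scaling. Relative to the median of all genes the deposited difference was -0.07. Cd2, the other partner, which is not in the family list and was tested, had 4.50 and 4.49 in MEL and 4.43 and 4.61 in ES-EP. The Cd2 groups overlapped and the difference of -0.02 ± 0.09 (SE, n = 2 per group) did not pass (limma, adjusted p = 0.860), while its sign turned under each of the 3 other scalings.

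Slamf1, the gene of CD150, was also higher in MEL. It had 5.61 and 5.80 in MEL, against 4.06 and 4.10 in ES-EP. The groups were well apart, at means of 5.71 ± 0.14 in MEL and 4.08 ± 0.03 in ES-EP (SD, n = 2 each), a 3.09-fold difference. The MEL level lay close to the middle of the array, above 48.1% of features, and the ES-EP level above 14.6%.

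Cd84 and Ly9 encode receptors that bind themselves and occur on many blood cells, Cd84 also on platelets. Cd84 had 6.00 and 6.42 in MEL, against 3.83 and 3.77 in ES-EP, a 5.31-fold difference. Its MEL duplicates were 0.42 apart, a gap wider than that of 96.7% of all features in MEL, yet the lower MEL culture was still far above both ES-EP cultures. Without MEL culture A or B the Cd84 difference ran from 2.20 to 2.62. Ly9 had 6.52 and 6.32 in MEL, against 5.42 and 5.42 in ES-EP. That made Ly9 2.00-fold higher, with a log2 difference of 0.998, just under the 2-fold line as deposited and above it after each of the 3 other scalings.

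Slamf6 and Slamf7, receptors best known from T cells and from natural killer and plasma cells, were dim in both groups. Slamf6 had 4.21 and 4.11 in MEL and 4.60 and 4.54 in ES-EP. Its difference of -0.41 shrank to -0.18 on quantile normalized values and to -0.20 with cyclic loess. Slamf7 had 4.15 and 4.03 in MEL and 4.02 and 3.92 in ES-EP, a difference of 0.12. It was 0.32 on quantile normalized values and 0.31 with cyclic loess, where that of Cd244 was the smallest of the 9. Leaving out 1 array moved it to 0.0568 without MEL culture A, 0.176 without MEL culture B, 0.166 without ES-EP culture A and 0.0672 without ES-EP culture B. Slamf6 was brighter than 19.8% of features in MEL and 23.3% in ES-EP, and Slamf7 than 18.5% and 12.7%, so the values of both lay in the dim range where the scaling matters.

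Slamf8 and Slamf9, whose products have short tails without the adaptor motifs, lay on the other side. Slamf8, a receptor of macrophages, had 4.56 and 4.65 in MEL, against 5.55 and 5.55 in ES-EP. It was 1.92-fold lower in MEL, with duplicates that agreed within 0.09 in MEL and 0.00225 in ES-EP. Slamf9 had 4.99 and 4.81 in MEL, against 5.69 and 5.75 in ES-EP, 1.77-fold lower in MEL. Both stayed lower under all 4 scalings, Slamf8 from -0.94 to -0.72 and Slamf9 from -0.82 to -0.61. All 4 of these group means lay below the median of the features.

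**Figure D1:**
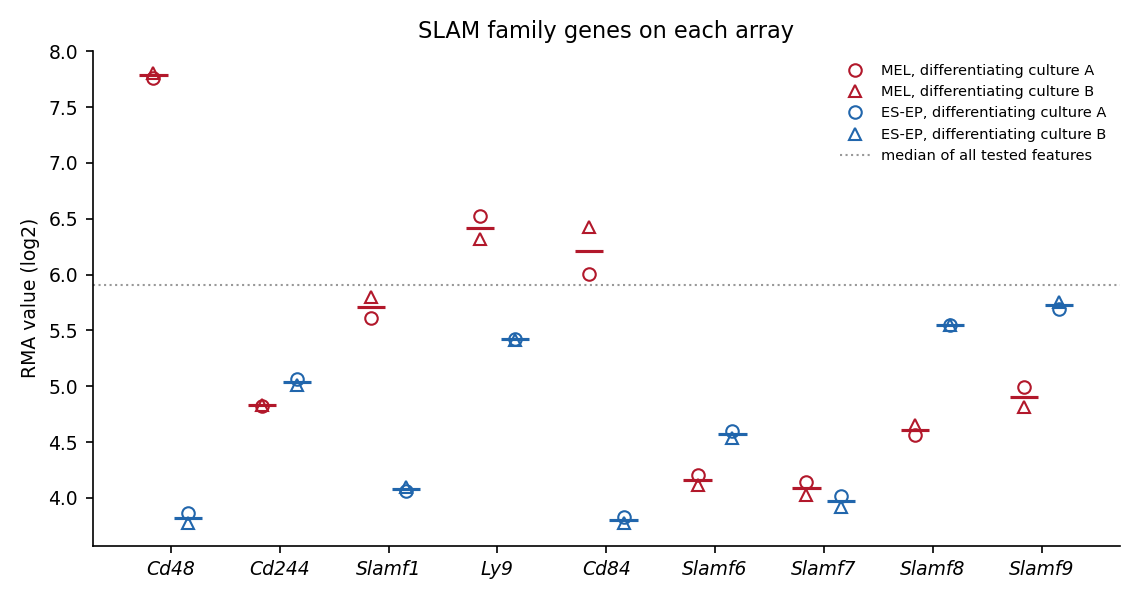
RMA values (log2) of the 9 SLAM family genes on each array, MEL left and ES-EP right for each gene, circles for culture A, triangles for culture B, bars for the group mean and a dotted line for the median of all tested features. Cd48, Slamf1, Ly9 and Cd84 are clearly higher in MEL, Slamf8 and Slamf9 are lower, and the other 3 genes differ by 0.41 or less.

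Counted together, the groups did not overlap for any of the 9 genes, with MEL above in 5 and below in 4, against 28.7% and 51.5% of all genes. In the limma fit 4 of the 9 passed as higher and 3 as lower, against 21.8% and 36.9% of all genes, and 3 passed as higher with at least 2-fold, against 7.38%. At least 2-fold lower were 0 of the 9, against 4.93% of all genes. Since the genes were picked on this contrast, nothing is read from these counts. The median difference was 0.12 over the 9 genes and -0.14 over all genes. After quantile normalization or cyclic loess the limma counts were 5 higher and 2 lower, from which nothing is read either. Of all genes 26.7% and 28.6% passed after quantile normalization, and 29.0% and 24.5% after cyclic loess. With features below the 20th percentile left out 8 of the 9 genes were still tested, and with features below the median left out only Ly9 was, Cd48 being removed by its low ES-EP values.

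**Figure D2:**
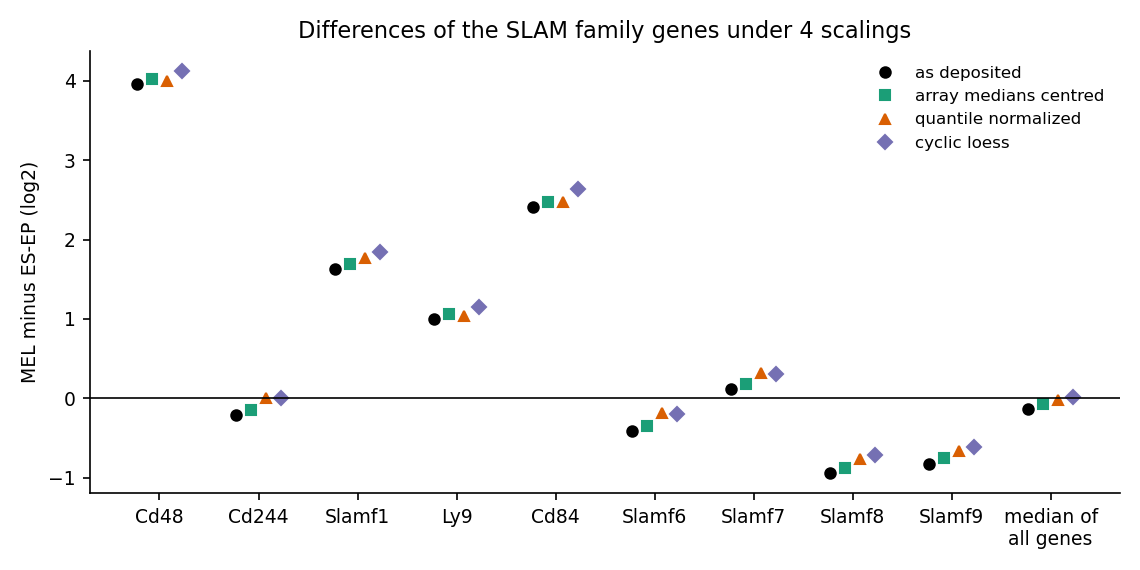
Difference of MEL minus ES-EP (log2) for the 9 genes and for the median of all genes, on the values as deposited and after centring, quantile normalization and cyclic loess. The signs hold under the 4 scalings for every gene but Cd244, which goes from -0.21 to 0.00991.

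The start regions of the genes are shown for the 3 most raised members and for Slamf7, which stands between Ly9 and Cd48 in gene order and differed by 0.12 as deposited and by up to 0.32 after another scaling. Each line is the 250 bases before the RefSeq start on assembly GRCm38.p6, 5′ to 3′ on the gene's strand. Of the 9 genes 8 were matched in that table, and Ly9 was not. Capitals mark short core motifs on either strand: GATAA for GATA factors, GGAAG for ETS factors and TGTGGT for RUNX factors. The windows are chr1:171681742-171681991 on the plus strand for Cd48, chr1:171766882-171767131 plus for Slamf1, chr1:171839447-171839696 plus for Cd84 and chr1:171649000-171649249 minus for Slamf7.
Cd48: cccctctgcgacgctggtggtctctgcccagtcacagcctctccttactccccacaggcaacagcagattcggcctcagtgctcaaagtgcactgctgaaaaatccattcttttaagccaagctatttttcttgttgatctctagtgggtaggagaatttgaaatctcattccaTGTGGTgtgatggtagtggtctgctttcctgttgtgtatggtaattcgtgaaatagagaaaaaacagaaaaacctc
Slamf1: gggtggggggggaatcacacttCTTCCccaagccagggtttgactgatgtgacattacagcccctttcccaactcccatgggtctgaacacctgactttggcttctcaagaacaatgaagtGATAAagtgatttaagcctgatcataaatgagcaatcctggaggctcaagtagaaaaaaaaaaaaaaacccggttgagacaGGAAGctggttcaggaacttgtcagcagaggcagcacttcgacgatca
Cd84: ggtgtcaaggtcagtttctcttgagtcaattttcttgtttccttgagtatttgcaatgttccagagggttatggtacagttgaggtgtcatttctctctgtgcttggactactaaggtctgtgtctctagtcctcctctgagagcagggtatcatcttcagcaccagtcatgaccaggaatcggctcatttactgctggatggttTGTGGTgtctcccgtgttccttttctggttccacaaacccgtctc
Slamf7: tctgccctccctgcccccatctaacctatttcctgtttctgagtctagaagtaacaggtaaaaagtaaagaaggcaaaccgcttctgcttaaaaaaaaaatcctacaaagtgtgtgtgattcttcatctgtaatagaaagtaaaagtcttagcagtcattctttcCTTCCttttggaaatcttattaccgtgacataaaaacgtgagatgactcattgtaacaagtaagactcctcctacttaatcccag

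None of the capitalized motifs occurred in all of the Cd48, Slamf1 and Cd84 windows, and the raised gene Ly9 had no window. TGTGGT occurred once each in the Cd48 and Cd84 windows, at 76 and 45 bases before the start counted from the match's left end, and in none of the other 6 windows, while 14.0% of all 32851 RefSeq windows hold it. GATAA occurred in the Slamf1 window alone, and in 22.6% of all windows. GGAAG was found in the windows of Slamf1, Slamf7, Slamf8 and Slamf9, 4 of 8, and in 64.1% of all. The E-box CANNTG was in all 8 windows and in 66.2% of all, and in Cd48 it overlaps the TGTGGT match. TATAAA was in 0 of 8, against 12.4% of all. A match or its lack describes these letters in this window and nothing of what binds there.

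Along the chromosome the family falls into 2 places. Cd244, Ly9, Slamf7, Cd48, Slamf1, Cd84 and Slamf6 stand side by side in the RefSeq order with 0 other measured genes between them. Then come 13 measured genes, Slamf9, 4 more and Slamf8. In gene order the differences of the 7 adjacent genes were -0.21, 1.00, 0.12, 3.96, 1.63, 2.41 and -0.41, so genes with small differences stand among genes with large ones. The raised genes Cd48, Slamf1 and Cd84 are next to each other, and Slamf7 separates Ly9 from them. The lower pair, Slamf9 and Slamf8, stands apart from the 7.

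The neighbours were not chosen on their values and were tested. Of 37 measured neighbours, which are the 17 between the outermost family genes and 10 on either side, 5 were higher and 17 lower in MEL, 13.5% and 45.9%, against 21.8% and 36.9% of all genes. Their median difference was -0.26, against -0.14 over all genes. After quantile normalization 7 were higher and 14 lower, 18.9% and 37.8%, against 26.7% and 28.6% of all genes. After cyclic loess the counts were 7 and 11, 18.9% and 29.7%, against 29.0% and 24.5% of all genes. Without ES-EP culture A 11 were lower. At least 2-fold higher were 3, namely Arhgap30, F11r and Vangl2, and at least 2-fold lower were 0, against 7.38% and 4.93% of all genes. The higher share was near that of all genes.

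Arhgap30, which stands 5 measured places before Cd244, had 8.55 and 8.63 in MEL, against 5.23 and 5.33 in ES-EP. It was 9.90-fold higher in MEL (3.31 ± 0.09, SE, n = 2 per group, limma, adjusted p = 2.59e-07). F11r, which encodes a junctional adhesion molecule of blood and epithelial cells, had 7.28 and 7.49 in MEL, against 4.68 and 4.70 in ES-EP, a 6.46-fold difference (limma, adjusted p = 9.95e-07). Between these genes lies Usf1, named for its place after its values were seen, which encodes a general E-box factor and did not pass (0.13 ± 0.12, SE, n = 2 per group, limma, adjusted p = 0.377). Vangl2, a planar cell polarity gene next to Slamf6, was 2.32-fold higher in MEL, at 6.98 and 7.08 against 5.80 and 5.83 in ES-EP (limma, adjusted p = 2.40e-05). Itln1, an intelectin gene next to Cd244, went the other way, at 3.77 and 3.66 in MEL against 4.39 and 4.67 in ES-EP (-0.82 ± 0.11, SE, n = 2 per group, limma, adjusted p = 0.000719). Genes that passed as higher and genes that did not were thus mixed along the stretch.

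None of the 4 measured genes next to the outlying pair differed by 2-fold. Some further passing differences nearby, also under 2-fold, are named here after their values were seen. They were those of Tagln2 (-0.55, limma, adjusted p = 0.00112), between Slamf9 and Slamf8, of Kcnj10 (-0.46, adjusted p = 0.00386) and of Dusp23 (0.42, adjusted p = 0.00444). Others, such as Dcaf8 (-0.68, limma, adjusted p = 0.000361), were larger. Of all the neighbours 17 passed as lower and 5 as higher in MEL. Pigm, beside Slamf9, encodes a mannosyltransferase of the glycolipid anchor that CD48 also carries. It had 8.46 and 8.63 in MEL and 8.72 and 8.89 in ES-EP, a difference of -0.26 that did not pass (limma, adjusted p = 0.0611). Its adjusted p ran from 0.0252 to 0.337 over the alternatives and was under the threshold in 6 of them, quantile normalization (0.0450) and the replicate block (0.0326) included. Igsf9, on the other side of Slamf9, differed by 0.21 (limma, adjusted p = 0.0718, and 0.0307 after quantile normalization). Beside Slamf8, Vsig8 differed by -0.27 (limma, adjusted p = 0.0960, and 0.0497 after quantile normalization). Fcrl6, an Fc receptor-like gene on its other side, also differed by -0.27 (limma, adjusted p = 0.0272), a call that was lost after each of the 3 other scalings and without MEL culture B or either ES-EP culture.

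**Figure D3:**
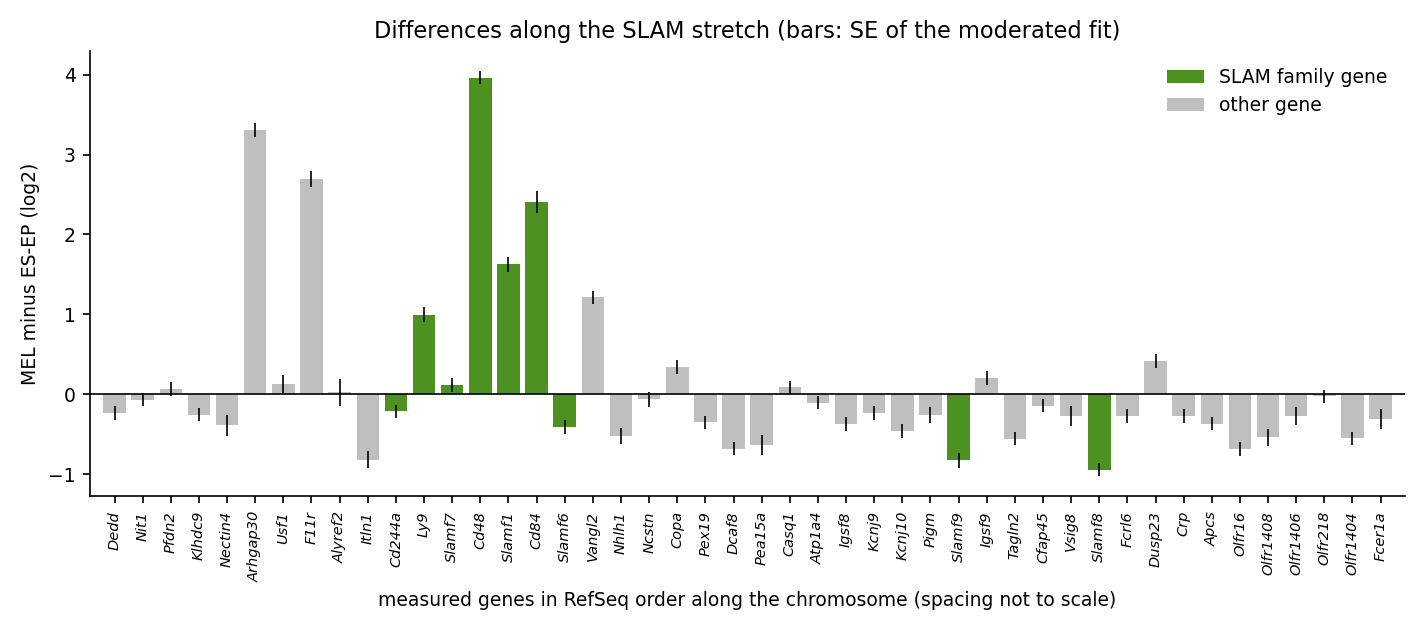
Difference of MEL minus ES-EP (log2) of 46 measured genes in their RefSeq order, SLAM family genes in green, other genes in grey, with the SE of the moderated fit as error bars. The tall bars are Arhgap30, F11r and the adjacent Cd48, Slamf1 and Cd84. Lower bars stand between Arhgap30 and F11r and between F11r and Cd48.

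The adaptors that SLAM tails recruit were dim in both groups. Sh2d1a, which encodes SAP and in mouse and human acts mainly in T and natural killer cells, had 4.21 and 4.31 in MEL, against 4.68 and 4.66 in ES-EP. Its difference of -0.41 ± 0.08 passed (SE, n = 2 per group, limma, adjusted p = 0.00518) and did not pass after quantile normalization (adjusted p = 0.134) or cyclic loess (0.103). Sh2d1b1, which encodes EAT-2, differed by -0.20 (limma, adjusted p = 0.0710). Its near copy Sh2d1b2 differed by -0.33 (limma, adjusted p = 0.0127) and lost the call under each of the 3 other scalings and without ES-EP culture A or B. Probes may not keep these 2 copies apart, and all 3 adaptors lay below the median of the array on all 4 arrays.

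Genes whose products act directly after the receptors moved both ways. Of 20 measured genes of this list 9 were higher and 5 lower in MEL, with a median of 0.13, against 21.8% and 36.9% and a median of -0.14 over all genes. On quantile normalized values 9 were higher and 3 lower, against 26.7% and 28.6% of all genes. With cyclic loess the counts were 11 and 3, against 29.0% and 24.5% of all genes. The higher ones were led by Plcg2, a phospholipase C that B cells, platelets and natural killer cells use. It had 7.57 and 7.70 in MEL, against 5.61 and 5.38 in ES-EP, a 4.42-fold difference (2.14 ± 0.10, SE, n = 2 per group, limma, adjusted p = 4.25e-06). Fyn, the kinase that SAP brings to SLAM receptors, had 6.64 and 6.91 in MEL, against 4.85 and 4.97 in ES-EP, 3.65-fold higher (limma, adjusted p = 1.15e-05). For both genes the MEL cultures lay well above the ES-EP cultures.

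Prkcq, a protein kinase C that T cell receptor and SLAM signals engage, led the lower ones. It had 8.41 and 8.45 in MEL, against 9.81 and 9.80 in ES-EP, and was 2.59-fold lower in MEL (limma, adjusted p = 1.06e-05). Becn1, part of the lipid kinase complex that mouse SLAMF1 binds in macrophages, had 9.39 and 9.46 in MEL, against 10.14 and 10.15 in ES-EP (-0.72 ± 0.08, SE, n = 2 per group, limma, adjusted p = 0.000284). The other members ranged between these in difference, and 6 of the 20 did not pass.

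**Figure D4:**
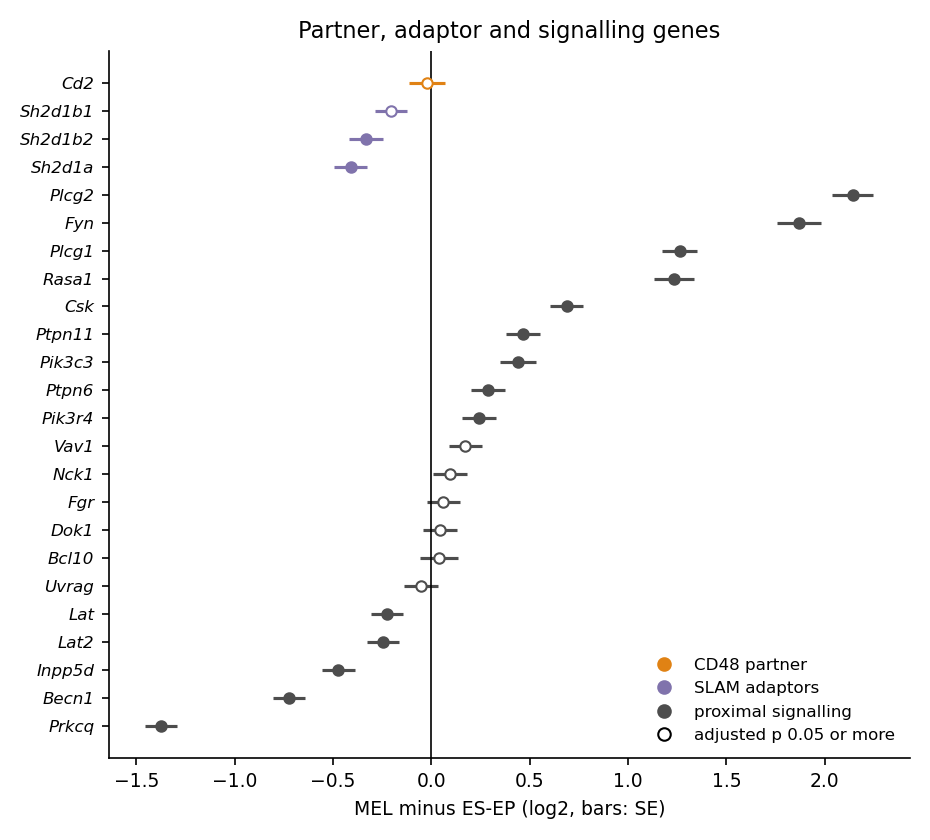
Difference of MEL minus ES-EP (log2) with its SE for Cd2, 3 SLAM adaptor genes and 20 signalling genes, filled where the limma adjusted p is under 0.05. Plcg2 and Fyn lie farthest right and Prkcq farthest left, while Cd2 lies close to 0 and the adaptors run from -0.41 to -0.20.

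Surface markers that are used together with the SLAM receptors to sort stem and progenitor cells split in both directions. Of 16 measured genes 3 were higher and 9 lower in MEL, against 21.8% and 36.9% of all genes, with a median of -0.32. After cyclic loess the counts were 3 and 6, 18.8% and 37.5%, against 29.0% and 24.5% of all genes. The median was then -0.10, against 0.02 over all genes. Cd9, a tetraspanin of stem cells and megakaryocytes, was 27.2-fold higher in MEL, at 9.30 and 9.31 against 4.63 and 4.44 in ES-EP (limma, adjusted p = 9.35e-08). Itga2b, which encodes CD41, was 4.67-fold higher, at 9.14 and 9.09 in MEL against 6.88 and 6.91 in ES-EP (limma, adjusted p = 1.06e-06). On the other side Kit, the stem cell factor receptor gene, had 5.33 and 5.40 in MEL, against 8.16 and 8.35 in ES-EP, 7.40-fold lower in MEL (limma, adjusted p = 7.13e-07). Fcgr2b, an Fc receptor gene, was 6.33-fold lower in MEL, at 6.18 and 6.22 against 8.85 and 8.88 in ES-EP (limma, adjusted p = 4.53e-07).

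In the sorting of mouse erythroid precursors CD150 is read beside endoglin, the product of Eng, a gene named here after its values were seen. Eng had 5.02 and 4.84 in MEL, against 6.02 and 6.41 in ES-EP, 2.44-fold lower in MEL (limma, adjusted p = 0.000211). Slamf1 and Eng thus differed in opposite directions between the same cultures.

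SLAM receptors are also markers of mature blood cells, and the lists for those cells are given beside the family's values. Of 5 measured megakaryocyte genes 4 were higher in MEL and 0 lower under all 4 scalings, against 21.8% and 36.9% of all genes as deposited. The list holds 9 genes, and the others were not measured. Their summed signal on the linear scale was 1174 and 1147 in MEL, against 307 and 363 in ES-EP. Itga2b, also on the progenitor list, and Pf4 made most of this gap, so the sums say little of the other genes. Pf4, a platelet chemokine gene, had 8.39 and 8.29 in MEL, against 4.05 and 3.86 in ES-EP, 20.8-fold higher (limma, adjusted p = 1.27e-07). The part of such expression in the SLAM values was not tested, and in bulk RNA more cells of a type and more RNA per cell cannot be told apart.

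The lymphoid lists were dim on all arrays. Below the median of the array on all 4 arrays were 8 of 9 measured T cell genes, 6 of 7 B cell genes and 7 of 8 natural killer genes. The T cell sums were 310 and 281 in MEL against 346 and 352 in ES-EP, the B cell sums 207 and 178 against 227 and 237, and the natural killer sums 196 and 177 against 215 and 212. As higher and lower in MEL, 1 and 6 T cell genes and 0 and 3 B cell genes passed. Of the natural killer genes 0 and 3 passed. After cyclic loess the counts were 1 and 4, 0 and 1, and 3 and 2, against 29.0% and 24.5% of all genes. As deposited the lower shares were 66.7%, 42.9% and 37.5%, against 36.9% of all genes. The B cell and natural killer shares were thus near that of all genes. Without MEL culture B or ES-EP culture B only 1 B cell gene was lower. Among the T cell genes the largest passing rise was that of Cd3g, a T cell receptor chain, at 0.96 (limma, adjusted p = 0.000270), and the largest passing fall that of Cd28 at -0.79 (0.000450). The largest passing fall of the B cell list was Cd79b, a B cell receptor chain, at -0.47 (0.00583), and that of the natural killer list the receptor gene Klrd1 at -0.96 (0.000681). Cd3g, at 5.08 and 5.22 in MEL and 4.07 and 4.31 in ES-EP, was the exception among these lists and the only T cell gene that passed as higher in MEL.

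Macrophage and mast cell genes are set beside the whole family. Of the family Cd48, Slamf1, Ly9 and Cd84 were higher in MEL, and Slamf8 and Slamf9 were lower. The differences of the other family genes were smaller. Of 10 macrophage and dendritic cell genes 0 were higher and 4 lower, the latter 40.0%, near the 36.9% of all genes. Their sums were 328 and 345 in MEL against 470 and 465 in ES-EP. After quantile normalization 1 was higher and 3 lower, against 26.7% and 28.6% of all genes. The same counts after cyclic loess stood against 29.0% and 24.5% of all genes. Cd14, the endotoxin co-receptor gene, differed by -0.99 (limma, adjusted p = 0.000429). The mast cell and basophil list had 0 higher and 6 lower genes of 8, or 75.0% lower against 36.9% of all genes, with sums of 288 and 284 in MEL against 547 and 522 in ES-EP, and 0 and 4 after cyclic loess. Without ES-EP culture A 1 gene of this list was higher. Ms4a2, whose product is the beta subunit of the IgE receptor, showed 11.5-fold lower signal in MEL, at 3.99 and 3.87 against 7.48 and 7.43 in ES-EP (limma, adjusted p = 2.01e-07). Ms4a2 alone made most of the gap between the mast cell and basophil sums, so these sums say little of the other genes. Of these lists 8 of 10 and 5 of 8 genes lay below the median of the array on all 4 arrays. The part of such expression in the values of the family was not tested.

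Among 11 erythroid genes 3 were higher and 7 lower in MEL, or 27.3% and 63.6% against 21.8% and 36.9% of all genes. The counts were 3 and 6 after centring or quantile normalization, and 4 and 6 after cyclic loess. Of all genes 23.0% and 28.8% passed after centring, 26.7% and 28.6% after quantile normalization, and 29.0% and 24.5% after cyclic loess. The water channel gene Aqp1 was 4.96-fold higher (limma, adjusted p = 1.17e-06), and the anion exchanger gene Slc4a1 43.4-fold lower (limma, adjusted p = 7.05e-08). The summed erythroid signal was 25237 and 26006 in MEL, against 40007 and 40481 in ES-EP.

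**Figure D5:**
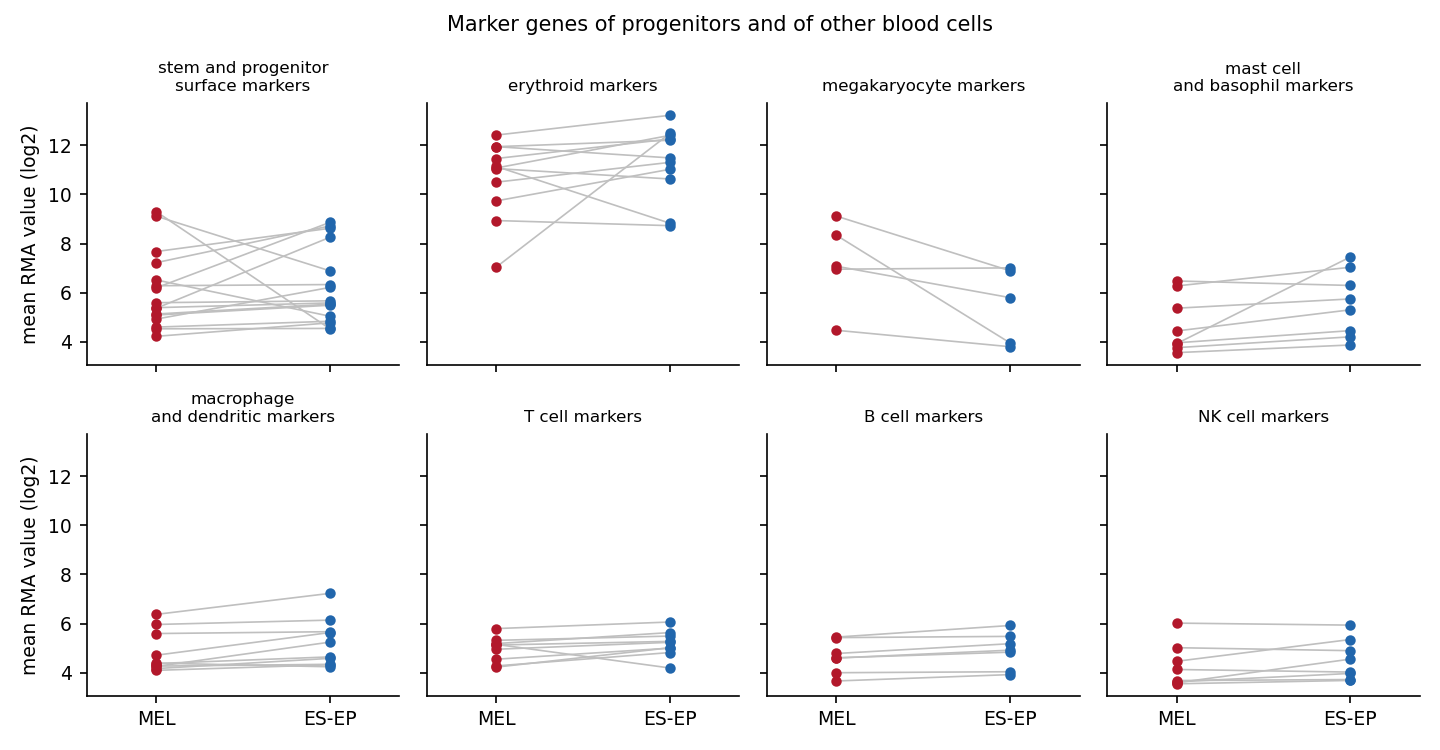
Mean RMA values (log2) of the measured genes of 8 marker lists in MEL, left, and ES-EP, right, with a grey line joining the means of a gene. Of the 5 megakaryocyte genes 4 slope down from MEL to ES-EP and Gp9, at 6.96 and 7.01, is level, while most T cell, B cell and natural killer genes stay low in both.

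The genes whose 4 values came closest to those of Cd48 were sought by Euclidean distance over the 4 arrays on the log2 scale, which takes in level and difference alike. Car5b, a mitochondrial carbonic anhydrase gene, was nearest at a distance of 0.249, with 7.75 and 7.76 in MEL and 3.67 and 3.91 in ES-EP. It was followed by the clathrin adaptor gene Ap1s3 at 0.359, the inositol phosphatase gene Ocrl at 0.374, the homeobox gene Meis2 at 0.443 and the nucleotide kinase gene Cmpk2 at 0.455. Any gene whose probes happen to be as bright in each of the 2 groups comes close, so this is a description of 4 arrays that starts from the values of Cd48, and it carries no test.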

How the data were processed

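The deposited table holds log2 RMA values of 4 arrays, made by the authors in GeneSpring GX, per the labels; that the scale is log2 was read from the values. The software's version, its annotation and build, and the set of arrays that RMA normalized jointly were not given in the sources used here, and no detection calls came with the values. Of 35557 features, 6613 low-numbered controls of the array's design were left out, leaving 28944. Genes were named from the platform annotation, updated by Entrez ID with RefSeq (GRCm38.p6, 21698 features matched); 21789 features had 1 symbol, 1621 several and 5534 none, and a gene's brightest feature stood for it.

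The test was limma 3.58.1 (lmFit and eBayes, R 4.3.3), with Benjamini-Hochberg adjustment over the 28944 features, on 2 residual and 5.15 prior degrees of freedom, tested on simulated data with variances drawn from the fitted prior. That model was adopted after a first simulation, with each feature's own sample variance, recovered fewer changed features and missed the limit set for it. The adopted simulation uses the prior that limma itself assumes and changes few features, all upward. It therefore checks the code and cannot tell whether the fit suits these arrays, where many features differ in both directions. An exact permutation of 4 arrays cannot give a p below 0.333. The number of arrays limits the precision. The 12 lists, the family among them, hold 115 genes, 105 of them measured, and were chosen with earlier results of these data known. Named genes are all family genes, Cd2, the adaptors, the largest passing rise and fall of each list (2 of each in the signalling and progenitor lists), neighbours next to a family gene or passing at 2-fold, and the 5 nearest to Cd48. Alternatives were 3 scalings, trended and robust priors, 2 dim filters, the replicate block, the mean of a gene's features, control features included and each culture left out.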

Additional observations from a re-analysis of the deposited data

How the results depend on the processing

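Among the alternatives in which a family gene was tested its direction held, except for Cd244, whose difference of -0.21 was 0.00369 on quantile normalized values and 0.00991 with cyclic loess. The filter at the median left only Ly9 of the family, and the one at the 20th percentile left out Slamf7. Over the alternatives run for each gene Cd48 ran from 3.91 to 4.12, Cd84 from 2.20 to 2.63, Slamf1 from 1.53 to 1.85, Ly9 from 0.90 to 1.15, Slamf8 from -0.98 to -0.72 and Slamf9 from -0.91 to -0.61. Cd2, at -0.02, turned to 0.21 after quantile normalization, 0.0437 after centring, 0.19 after cyclic loess, and ran from -0.11 without ES-EP culture A to 0.0701 without culture B. Of all features 5523 passed as higher and 10827 as lower, and the lower count became 7084 after cyclic loess and 5479 with features under the median left out. The count at least 2-fold lower, 1495, became 2631 with control features included. With features under the median left out fewer genes are tested, and the family counts of 4 and 3 became 1 and 0, the lower neighbours 6 in place of 17, and the lower marker genes 14 in place of 38. Of Cd2, the adaptors and the signalling genes together, 7 were lower, or 29.2%, against 36.9% of all genes. Quantile normalized values left 3 of them lower, or 12.5%, against 28.6% of all genes. Centred arrays left 4, or 16.7%, against 28.8%. Cyclic loess left 3, or 12.5%, against 24.5%. The lower share thus fell over all genes as well. With features under the median left out 3 of the list were lower. Of the neighbours 11 were lower after cyclic loess, or 29.7%, against 24.5% of all genes. In fits with 1 array left out the lone culture is assumed to vary like the other group. The letters A and B are not said to pair the cultures, and the A minus B differences of the groups correlated at 0.11 over features, a single pair. With the replicate block 5595 features were higher and 11129 lower, the family counts were 4 and 3, and no count moved by over 1.5 times. Without detection calls, differences among dim genes such as Slamf6 and Slamf7 are limited by the floor.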
